A study of Homo sapiens with 6 samples.

Results

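The BCL2 family decides at the outer membrane of the mitochondrion whether a cell starts apoptosis, and 10 of its genes are described here in DU145 cells with and without siRNA against RCC2. The members were taken by gene name (BCL2, BCL2L1, MCL1, BAX, BAK1, BID, BMF, BBC3, PMAIP1 and BCL2L11) without any threshold on their values, and all 10 had a row among the 50868 genes of the count tables. DU145 is an androgen-independent human prostate cancer line. RNA was sequenced from 3 libraries of cells given a control siRNA (siCtrl, labelled wild type for RCC2) and 3 given an siRNA against RCC2 (siRCC2, labelled as the knockdown). The series title concerns proliferation and migration under RCC2. How many siRNAs were used, and at which dose and time, is not given in the sources used here. Nothing says that the replicates were grown separately, so p-values reflect how much the sequenced libraries varied, and that variation may be technical.

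The family has 3 kinds of member. Guardians (among the members described here BCL2, BCL2L1, which encodes BCL-XL, and MCL1) bind and hold back the others. Effectors (BAX and BAK1) form pores in the outer mitochondrial membrane, through which cytochrome c leaves to switch on caspases. BH3-only proteins (BID, BMF, BBC3 or PUMA, PMAIP1 or NOXA, and BCL2L11 or BIM) sense stress and either block guardians or activate effectors. Most of this control acts on proteins, through binding, cleavage and degradation, and RNA counts show none of it. Several members, BCL2L1, MCL1 and BCL2L11 among them, are spliced into forms with unlike activity, and the gene-level counts add these forms together.

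With RCC2 siRNA, effectors and BH3-only genes moved in both directions, while of the 3 guardians among the 10 members 1 rose and 0 fell. BMF and BBC3, which promote death, were lower in siRCC2, and so was the effector BAX. The other effector, BAK1, the BH3-only gene BID and the guardian MCL1 were higher. Of the 10 members, 3 rose (20.7% of all 16536 tested genes did), 3 fell (21.1% did) and 4 did not pass an adjusted p of 0.05 in edgeR's quasi-likelihood test, with adjustment over all tested genes. In either direction 41.8% of tested genes passed, so 6 of 10 is set against a background in which changes were common. For 7 of the 10 members siCtrl and siRCC2 values were free of overlap, against 55.4% of all tested genes. In bulk RNA, fewer cells with a transcript and less of it per cell cannot be told apart. The count of members that passed ranged from 4 to 7 when 1 library was left out.

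RCC2 itself had 194 ± 3.84 CPM in siCtrl and 57.2 ± 2.25 CPM in siRCC2 (SD, n = 3), and each siRCC2 library lay below each siCtrl library. CPM is the count scaled by TMM to a common library size. Total counts were between 17377191 and 19895431 per library, and 1 CPM after scaling stood for 16.5 to 20.2 reads. The second principal component, which held 16.4% of the variance, set siRCC2 replicate 1 (41.5) apart from siRCC2 replicates 2 (-13.3) and 3 (-35.2). The 5 epithelial markers summed to 1308.6 to 1330.9 CPM in siCtrl and 1619.5 to 1819.3 CPM in siRCC2 (3 rose, 1 fell), and their part in the results was not tested. The leukocyte, endothelial and fibroblast marker lists summed to at most 3.92, 1.46 and 16.2 CPM, with CD3E and LUM among the markers at 0 in every library.

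The sequence just upstream of a gene is where many of its regulators bind. RefSeq windows (GRCh38.p14, from 250 bases before to 50 bases after a start site) were found for 9 of the 10 members, all but MCL1. They are shown for the 2 members that fell most (BMF and BBC3), for the effector BAX, for BID, which rose, and for BCL2L11, which was high in 1 library. Capitals mark matches, on either strand, to the E-box CACGTG bound by MYC and its relatives, the cAMP response element TGACGTCA, the AP-1 motif TGANTCA, the forkhead motif GTAAACA, the ATF4 and CHOP composite TGATGNAAT, the STAT motif TTCNNNGAA or an NF-kB motif. The windows are given 5′ to 3′ on the gene's strand.
BMF, chr15:40108830-40109129, minus strand: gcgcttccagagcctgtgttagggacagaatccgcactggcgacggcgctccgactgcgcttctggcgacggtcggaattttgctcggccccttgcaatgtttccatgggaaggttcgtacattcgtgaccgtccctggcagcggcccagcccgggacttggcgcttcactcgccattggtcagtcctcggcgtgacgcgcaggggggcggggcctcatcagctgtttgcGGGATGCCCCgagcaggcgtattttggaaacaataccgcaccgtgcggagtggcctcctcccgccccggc
BBC3, chr19:47232618-47232917, minus strand: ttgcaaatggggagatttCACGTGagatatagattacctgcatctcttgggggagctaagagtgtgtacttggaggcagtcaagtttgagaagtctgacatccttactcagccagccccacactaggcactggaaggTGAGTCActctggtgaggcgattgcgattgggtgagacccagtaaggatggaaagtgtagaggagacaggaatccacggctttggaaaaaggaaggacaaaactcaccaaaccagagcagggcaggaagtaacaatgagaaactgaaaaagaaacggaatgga
BAX, chr19:48954625-48954924, plus strand: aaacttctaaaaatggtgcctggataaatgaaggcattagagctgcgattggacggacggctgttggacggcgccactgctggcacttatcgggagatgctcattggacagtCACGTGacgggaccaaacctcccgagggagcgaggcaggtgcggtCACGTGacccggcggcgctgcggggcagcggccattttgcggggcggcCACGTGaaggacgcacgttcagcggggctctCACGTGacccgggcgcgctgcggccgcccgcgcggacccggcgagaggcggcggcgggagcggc
BID, chr22:17773934-17774233, minus strand: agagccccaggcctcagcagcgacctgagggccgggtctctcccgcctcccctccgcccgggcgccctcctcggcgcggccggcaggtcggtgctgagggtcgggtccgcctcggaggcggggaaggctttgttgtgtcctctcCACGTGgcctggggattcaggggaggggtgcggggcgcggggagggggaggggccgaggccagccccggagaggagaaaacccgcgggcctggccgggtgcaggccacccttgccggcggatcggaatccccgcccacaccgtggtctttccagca
BCL2L11, chr2:111120664-111120963, plus strand: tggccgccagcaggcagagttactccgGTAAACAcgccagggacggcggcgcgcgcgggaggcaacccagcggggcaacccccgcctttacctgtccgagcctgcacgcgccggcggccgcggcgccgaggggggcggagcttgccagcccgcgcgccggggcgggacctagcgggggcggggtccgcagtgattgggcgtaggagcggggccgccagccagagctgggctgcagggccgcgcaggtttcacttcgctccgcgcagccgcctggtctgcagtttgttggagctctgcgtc

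The BAX window held 4 E-boxes, which begin at positions -138, -93, -45 and -14 from the start site, while 7.26% of all 35116 windows held at least 1. BBC3 held 1 E-box and 1 AP-1 match, the latter found in 7.71% of all windows. Of the 5 BID windows, which stand for alternative start sites, 2 overlap and held the same E-box, at -106 and -47 from their start sites. Only 1 of these windows is shown. An NF-kB match stood in the printed window of BMF (5.91% of all windows) and a forkhead match in that of BCL2L11 (3.42%). BMF also had a window at another start site (chr15:40106917-40107216), which is not printed and held no NF-kB match. None of the members' windows, which leave out MCL1, held the cAMP response element (1.85% of all windows), the ATF4 and CHOP composite (0.991%) or the STAT motif (7.66%). The GC box GGGCGG, in 45% of all windows, was searched too and is not in capitals. A 10-base p53 motif, in 6.63% of all windows, was also searched. Among the members' windows it matched only in that of BAK1, which is not printed, beginning at -73 from the start site. The windows of BBC3, BAX and PMAIP1 held no match to it. These matches describe sequence, and factor binding was not measured. Among the windows printed, no motif in capitals stood in all 3 members that fell.

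Levels of different genes were compared as CPM per kb of exon, using the union of all annotated exons. In siCtrl MCL1 stood highest at 137 ± 3.1 CPM per kb (SD, n = 3), followed by BCL2L1 at 81.3 ± 4.06. The effector BAK1 had 26.7 ± 1.38, PMAIP1 19.1 ± 1.37, BAX 16.6 ± 0.557 and BID 14.2 ± 0.96 CPM per kb. BMF (6.42 ± 0.228), BBC3 (3.58 ± 0.42) and BCL2L11 (1.26 ± 0.28) came next. BCL2, the founding member, was nearly absent at 0.0628 ± 0.00964. The siCtrl ranges of neighbours in this order did not overlap. The order of the middle members depends on the length used: with the longest transcript, BAX (31.6 CPM per kb) passed above BAK1 (26.7), BID (25.2) and PMAIP1 (21.9), and the ranges of BAK1, BID and PMAIP1 overlapped their neighbours. MCL1, BCL2L1 and the 4 lowest genes kept their places. In siRCC2 BID (21.9 ± 2.18) moved above PMAIP1 (21.2 ± 2) and BAX (13.6 ± 0.613), though the ranges of BID and PMAIP1 overlapped.

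**Figure D1:**
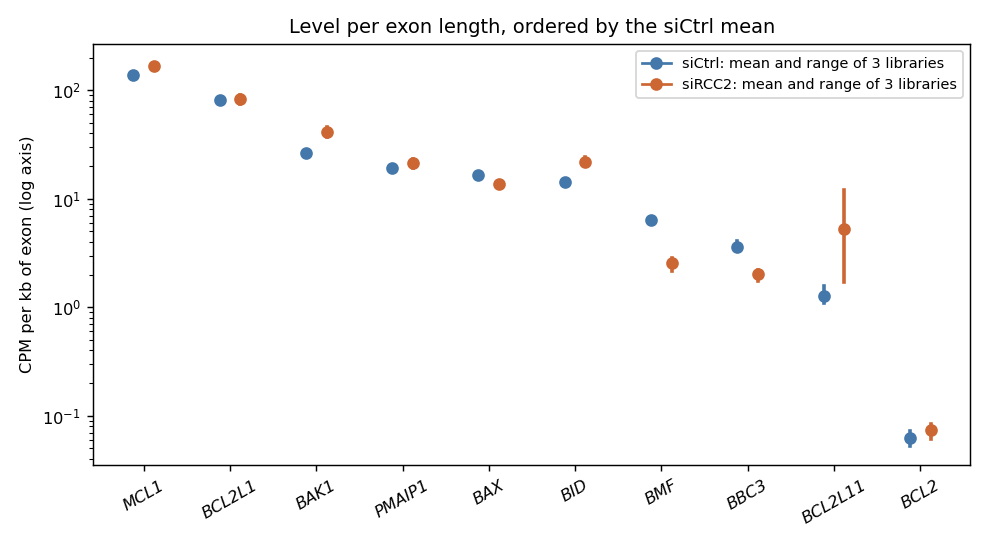
Level of each member as TMM-scaled CPM per kb of exon on a log axis, with points for the mean and lines for the range of 3 libraries per group. MCL1 and BCL2L1 stand above all other members, BCL2 is lowest, and the siRCC2 range of BCL2L11 is the widest, from 1.71 to 12.1.

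Among guardians, MCL1 (chromosome 1, 150574551 to 150579738, minus strand) had 615, 588 and 597 CPM in siCtrl replicates 1 to 3 and 680, 747 and 779 CPM in siRCC2 replicates 1 to 3. Every siRCC2 library lay above every siCtrl library. MCL1 rose by 0.29 ± 0.07 on the log2 scale (SE; edgeR adjusted p = 0.0128), a 1.23-fold difference in RNA. The MCL1 protein, which is made and destroyed rapidly, was not measured. The call of the gene was lost without siCtrl replicate 2 (adjusted p = 0.0551), siCtrl replicate 3 (0.0538) or siRCC2 replicate 2 (0.0526), with log2 fold changes from 0.28 to 0.29.

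BCL2L1 (chromosome 20, 31664452 to 31723989, minus strand) had 281, 273 and 255 CPM in siCtrl and 302, 270 and 250 CPM in siRCC2. The groups overlapped, and the log2 fold change was 0.02 ± 0.09 (edgeR adjusted p = 0.846) with a 95% confidence interval from -0.18 to 0.23. BCL2 (chromosome 18, 63123346 to 63320128, minus strand) rested on 17, 14 and 12 counts in siCtrl and 12, 19 and 17 counts in siRCC2. Its interval, from -0.40 to 0.86 (edgeR adjusted p = 0.536), does not show whether it changed. MCL1 made up 62.8 ± 1.04% of the summed CPM per kb of BCL2, BCL2L1 and MCL1 in siCtrl and 67 ± 3.68% in siRCC2. The value of siRCC2 replicate 1 (63%) lay inside the siCtrl range.

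**Figure D2:**
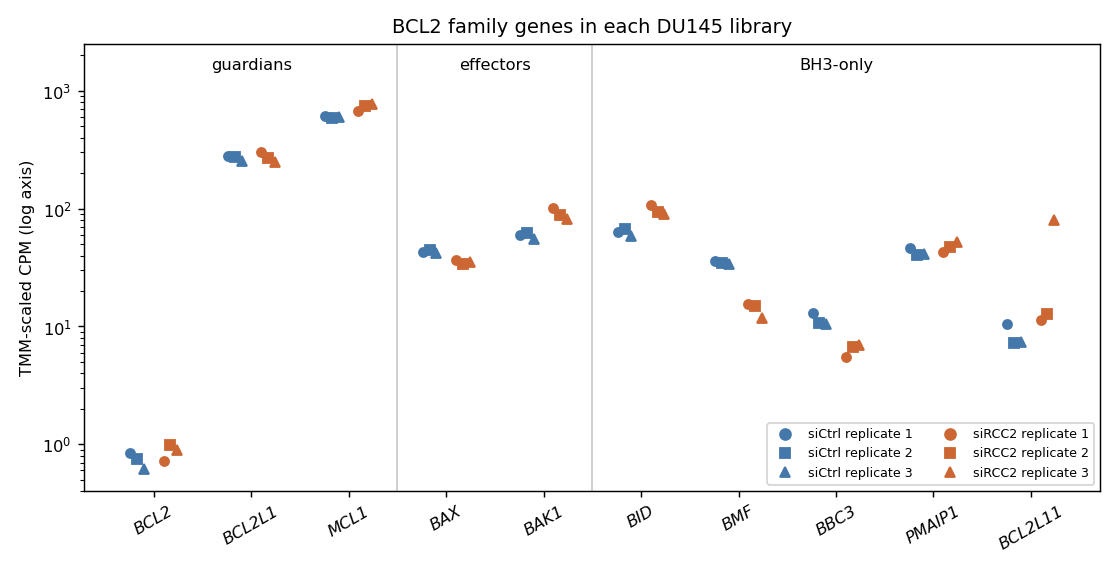
TMM-scaled CPM of the 10 members in each of the 6 libraries on a log axis, with siCtrl in blue, siRCC2 in orange and 1 symbol shape per replicate number. BAK1, BID and MCL1 lie higher and BAX, BMF and BBC3 lower in every siRCC2 library, and BCL2L11 has 1 point at 80.7 CPM far above its others.

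The effectors moved apart. BAK1 (chromosome 6, 33572547 to 33580293, minus strand), which sits in the mitochondrial membrane, had 59.8, 61.6 and 55.6 CPM in siCtrl and 101, 89.2 and 82.1 CPM in siRCC2. The groups did not overlap, and BAK1 rose by 0.62 ± 0.10 (SE; edgeR adjusted p = 0.00239), or 1.54-fold. A pseudogene, BAK1P1, shares 12.8% of the 50-base stretches of the longest BAK1 transcript, and reads could be split between them. BAK1P1 had only 2.26 to 4.35 CPM, and the sum of both genes went from 61.6 ± 3.12 to 94.4 ± 10 CPM. The longest transcripts of the other 9 members share no 50-base stretch with transcripts of other genes. Exons outside the longest transcripts were not searched.

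BAX (chromosome 19, 48954815 to 48961798, plus strand), which moves from the cytosol to mitochondria on activation, had 42.6, 44.5 and 41.7 CPM in siCtrl and 36.8, 33.6 and 35.3 CPM in siRCC2. Its groups did not overlap either, and its log2 fold change was -0.29 ± 0.08 (SE; edgeR adjusted p = 0.0276). The call was lost by DESeq2 (adjusted p = 0.0609) and without each library in turn except siRCC2 replicate 1 (adjusted p from 0.0507 to 0.152), while the direction stayed the same. DU145 is known to carry frameshift mutations in BAX and to lack the BAX protein, so these counts describe an RNA whose protein is not made in this line. With the union of exons, the ratio of BAK1 to BAX per kb was 1.61 ± 0.0415 in siCtrl and 3.01 ± 0.26 in siRCC2. Its size depends on the length used. With the longest transcript BAK1 had 26.7 and BAX 31.6 CPM per kb in siCtrl, against 41 and 25.9 in siRCC2.

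BMF and BBC3 were the BH3-only genes that fell. BMF (chromosome 15, 40087890 to 40108892, minus strand), whose protein is tied to the dynein light chain DYNLL2 until cells detach or their cytoskeleton is disturbed, showed the smallest p of the family. It had 36.3, 34.8 and 33.8 CPM in siCtrl and 15.4, 14.9 and 11.7 CPM in siRCC2. All siRCC2 values lay below the lowest siCtrl value, and the log2 fold change was -1.32 ± 0.13 (SE; edgeR adjusted p = 0.000341), a level 2.5-fold lower. BBC3 (chromosome 19, 47220822 to 47232766, minus strand), whose protein PUMA binds all guardians, had 12.9, 10.8 and 10.4 CPM in siCtrl and 5.56, 6.75 and 7.03 CPM in siRCC2. It fell in every siRCC2 library, with a log2 fold change of -0.82 ± 0.15 (edgeR adjusted p = 0.00467).

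The guardian-binding gene PMAIP1 (chromosome 18, 59899948 to 59904306, plus strand), whose protein acts chiefly on MCL1, did not follow BBC3. It had 46.1, 40.5 and 41.1 CPM in siCtrl and 42.8, 47.7 and 51.7 CPM in siRCC2, and the groups overlapped. The log2 fold change was 0.16 ± 0.10 (edgeR adjusted p = 0.262), with an interval from -0.09 to 0.40.

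BID (chromosome 22, 17734138 to 17774770, minus strand), which caspase-8 cleaves to carry a death receptor signal to mitochondria, rose. Its values were 63.4, 67 and 58.5 CPM in siCtrl and 108, 94 and 89.6 CPM in siRCC2, without overlap. The log2 fold change was 0.63 ± 0.10 (SE; edgeR adjusted p = 0.00239), close in size to that of BAK1. The calls of BAK1, BID, BMF and BBC3 held under all 14 alternatives tried for each, with log2 fold changes from 0.52 to 0.69 for BAK1, 0.53 to 0.69 for BID, -1.41 to -1.20 for BMF and -0.88 to -0.72 for BBC3.

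**Figure D3:**
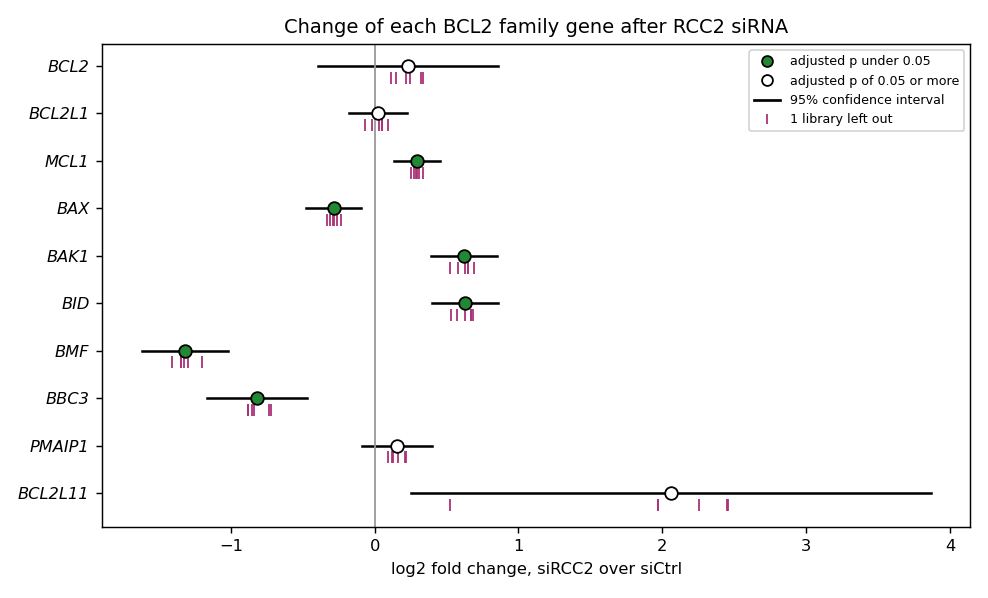
Log2 fold change of each member, siRCC2 over siCtrl, with its 95% confidence interval; filled points passed an adjusted p of 0.05 and small ticks give the value with 1 library left out. BMF and BBC3 lie left of 0 in all fits drawn, BAK1 and BID right of 0, and the ticks of BCL2L11 spread from 0.52 to 2.46.

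BCL2L11 (chromosome 2, 111119378 to 111168447, plus strand), whose protein BIM binds all guardians, differed most between libraries of 1 group. Its counts were 212, 135 and 142 in siCtrl and 188, 246 and 1540 in siRCC2, or 10.5, 7.28 and 7.32 against 11.4, 12.7 and 80.7 CPM. The groups did not overlap, yet siRCC2 replicates 1 and 2 lay just above siCtrl replicate 1 and replicate 3 was 6.37 times the next highest library. The log2 fold change was 2.06 ± 0.77 (SE; edgeR adjusted p = 0.0672) and did not pass. Without siRCC2 replicate 3 it was 0.52 ± 0.20 (adjusted p = 0.0817). Without siRCC2 replicate 1 or 2 it passed (2.46, adjusted p = 0.0249, and 2.45, adjusted p = 0.0381), each time resting on replicate 3. The gene-level counts do not show which reads or transcripts make up the value of that library, and whether it lies in the cells or in how reads were assigned was not tested.

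Only 4 of the 16536 tested genes were at least 1 CPM and at least 4 times higher in siRCC2 replicate 3 than in each other library, a count made after BCL2L11 was seen. They were BCL2L11, MYC, KCTD7 and MPZL1. MYC, which encodes a transcription factor of growth genes, had 3.03, 3.34 and 3.71 CPM in siCtrl and 8.04, 3.04 and 67.5 CPM in siRCC2. KCTD7 reached 56.4 CPM in that library against at most 10.7 elsewhere, and MPZL1 276 against at most 64.8. Each of the other libraries had between 0 and 2 such genes. In the other direction, siRCC2 replicate 1 stood out. It had 24 genes at least 4 times lower than in each other library, against 2 to 8 in the rest (7 in siRCC2 replicate 3).

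**Figure D4:**
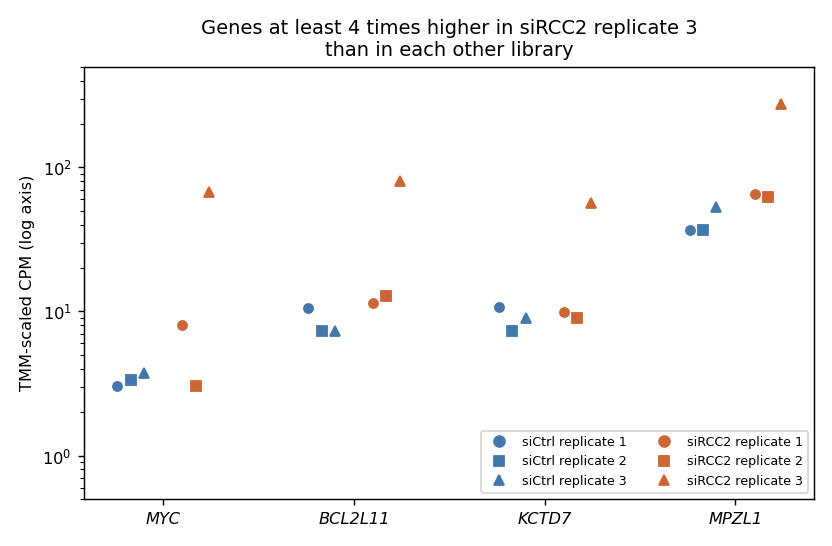
TMM-scaled CPM on a log axis, by library, of the 4 genes at least 4 times higher in siRCC2 replicate 3 than in each other library, with colours for groups and shapes for replicates. For BCL2L11 the other 5 libraries lie between 7.28 and 12.7 CPM and replicate 3 of siRCC2 at 80.7.

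Summed by kind over the members alone, in CPM per kb and with no test, each kind was higher in siRCC2. The guardians went from 219 ± 6.18 to 251 ± 3.7 and the effectors from 43.3 ± 1.9 to 54.6 ± 4.67. The BH3-only genes went from 44.5 ± 2.54 to 52.9 ± 5.94, and without BCL2L11 from 43.2 ± 2.29 to 47.7 ± 0.361. Within the BH3-only genes the makeup differed more than the sum: the ratio of BID to BMF was 2.14, 2.36 and 2.12 in siCtrl and 8.6, 7.73 and 9.39 in siRCC2.

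Other genes of the BCL2 group were also split. Of 13 listed, 10 were tested, of which 3 rose and 3 fell (median log2 fold change 0.14, against -0.02 over all tested genes and 0.19 over the 10 members). The number that rose was 1 without siCtrl replicate 1 or 2, or when every gene with 1 read or more was tested. Counts of this and the following lists stand against 20.7% of all tested genes that rose and 21.1% that fell. Whether any list differed from these shares was not tested. BOK, an effector-like relative, rose from 29.2 ± 0.427 to 47.7 ± 0.508 CPM (0.71 ± 0.08, edgeR adjusted p = 0.000506). BCL2L13, a mitochondrial membrane protein with a role in mitophagy, fell from 223 ± 5.27 to 103 ± 3.7 CPM (-1.12 ± 0.06). The BH3-only gene BIK fell from 4.25 ± 0.962 to 2.17 ± 0.206 CPM. The BH3-only gene HRK fell from 19, 16 and 29 counts in siCtrl to 0, 0 and 2 in siRCC2 (edgeR adjusted p = 0.00233). BCL2L14 had 0 counts in every library. BNIP3, a mitophagy receptor with a BH3-like motif, rose from 86.1 ± 3.12 to 104 ± 5.16 CPM (edgeR adjusted p = 0.0193). The BH3-only gene BAD had 57.2 ± 5.18 and 68.2 ± 8.45 CPM and did not pass (adjusted p = 0.125).

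Downstream of the family, 12 caspase and apoptosome genes were tested, and 3 rose and 3 fell (median 0.07). Only 1 fell without siCtrl replicate 1, siCtrl replicate 3 or siRCC2 replicate 2. CASP9, the caspase that the apoptosome activates, fell from 32.9 ± 0.751 to 17.5 ± 1.62 CPM (-0.91 ± 0.10, edgeR adjusted p = 0.000625). CYCS, which encodes cytochrome c, rose by 0.55 ± 0.12, CASP6 by 0.61 ± 0.13 and DFFA, the inhibitor of the caspase-activated nuclease, by 0.38 ± 0.07. Of 9 tested genes of caspase inhibitors (IAPs) and their antagonists, 0 rose and 4 fell (median -0.54). They were the inhibitor gene BIRC3 (29.8 ± 3.76 to 9.61 ± 5.05 CPM), the E3 ligase gene AREL1 (-0.58 ± 0.07), and SEPTIN4 (-1.35 ± 0.19) and HTRA2 (-0.46 ± 0.11), which encode IAP antagonists. The HTRA2 call was lost without siCtrl replicate 1 (edgeR adjusted p = 0.0526) or siRCC2 replicate 2 (0.0565).

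Of 11 mitochondrial partner genes, 1 rose and 2 fell (median -0.02), and 1 fell without each library in turn except siRCC2 replicate 1. MTCH2, the receptor for cleaved BID, rose with BID, from 70.6 ± 3.98 to 98.1 ± 5.36 CPM (0.47 ± 0.08, edgeR adjusted p = 0.00321). The fusion gene MFN1 fell (-0.87 ± 0.18), and the nuclease gene ENDOG fell (-0.32 ± 0.10), a call lost in 8 of 14 alternatives (adjusted p from 0.0506 to 0.142). The channel genes VDAC1, VDAC2 and VDAC3, of which VDAC2 holds BAK1 at the membrane, did not pass.

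Of 11 genes whose proteins act on members, 3 rose and 4 fell (median -0.08). DYNLL2, the anchor of the BMF protein, rose from 124 ± 4.41 to 231 ± 6.46 CPM (0.90 ± 0.06, edgeR adjusted p = 0.000103) while BMF fell. PIM1 (-0.82 ± 0.08) and PIM3 (-1.41 ± 0.07), kinases that inactivate the BH3-only protein BAD, fell, and so did USP13 (-0.90 ± 0.10), a deubiquitinase of MCL1. HUWE1 and USP9X, a ligase and a deubiquitinase of MCL1, did not pass. In the same list FBXW7 and MARCHF5 did not pass either, while BTRC rose from 39.9 ± 2.84 to 61 ± 3.81 CPM (edgeR adjusted p = 0.00198). Of 16 tested transcriptional regulators of member genes, 3 rose and 8 fell (median -0.33), and without siRCC2 replicate 2 the counts were 4 and 5. EGR1 fell from 257 ± 5.6 to 82.5 ± 2.56 CPM, and DDIT3, which encodes the stress factor CHOP, from 56.9 ± 4.76 to 23.6 ± 3.04 CPM. JUN rose from 93.7 ± 0.536 to 222 ± 15.6 CPM and STAT3, known to act on MCL1 and BCL2L1, from 304 ± 3.06 to 614 ± 30.7 CPM. TP63 had 0 counts in every library, and of the forkhead genes FOXO4 rose from 9.75 ± 1 to 17.1 ± 1.63 CPM (0.81 ± 0.13, edgeR adjusted p = 0.00284), while FOXO1 and FOXO3, known activators of BCL2L11, did not pass.

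**Figure D5:**
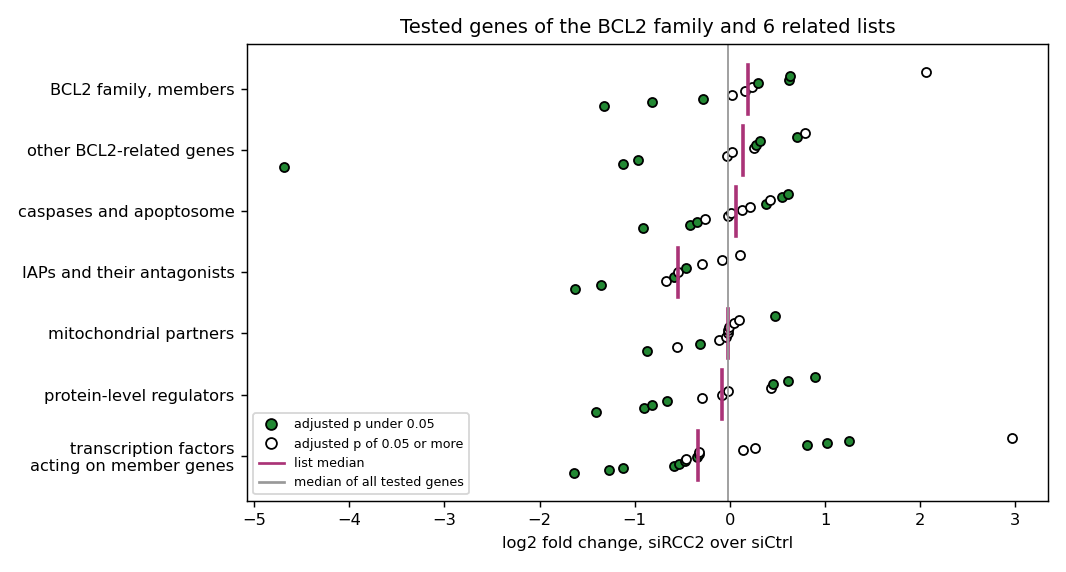
Log2 fold changes, siRCC2 over siCtrl, of the tested genes in the family and in 6 related lists, with filled points for an adjusted p under 0.05, purple bars for list medians and a grey line for the median of all tested genes. Each list but that of the IAPs and their antagonists holds genes that passed on both sides, and the place of HRK, the leftmost point, depends on how counts of 0 are treated in the fit.

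The genes with the pattern most like BMF over the 6 libraries, among tested genes within a factor of 2 of its mean CPM, were GLMP, REEP2 and GPR161. Their centred log2 CPM differed from that of BMF by a root mean square of 0.08, 0.08 and 0.09. GLMP, a lysosomal membrane protein gene, went from 59.3 ± 1.61 to 22.2 ± 2.49 CPM. REEP2 went from 29.7 ± 1.53 to 11.7 ± 1.86 CPM and GPR161, a receptor gene of the cilium, from 21.1 ± 1.53 to 8.47 ± 1.5 CPM.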

How the data were processed

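RNA sequencing of 6 DU145 libraries was analysed. Per the labels' protocols, an MGIEasy kit was used on total RNA; whether strand was kept is not given in the sources used here. Bowtie2, RSEM, DESeq2 and the build GRCh38 are named, without versions, per the submitters' processing notes. The authors deposited whole-number counts for 50868 genes, with totals from 17377191 to 19895431. RSEM shares reads among like transcripts.

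The deposited counts went into edgeR 4.0.16 under R 4.3.3 (filterByExpr, TMM scaling, quasi-likelihood F-test, Benjamini-Hochberg adjustment over 16536 tested genes, threshold 0.05). Standard errors were taken as log2 fold change over the root of F. Replicates were not copies of 1 library: chi-square per degree of freedom was at least 10.3 in each pair. Strands, lengths and transcripts came from GENCODE release 29 (GRCh38), with all 10 members at identical coordinates. The members and lists were chosen with earlier results of these data known. Named list genes were up to 4 per list with the smallest p among those past the threshold, genes with at most 3 counts in every library, and the 3 genes most like the member with the smallest p. Others are named to complete a description.

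The alternatives were other scalings, DESeq2 1.42.0, limma-voom (limma 3.58.1), other filters, a replicate block, leaving out each library, a stricter threshold and another gene length. The test was checked on simulated counts with known changes. It recovered 12 of 50 changes of 1.5-fold, 38 of 50 of 2-fold and 47 of 50 of 3-fold, with 4 false calls among 148. Changes of 1.5-fold were thus missed more often than found in that simulation. It changed only 50 genes at each of 1.5-, 2-, 3- and 4-fold among 16536, whereas 41.8% of tested genes passed in the data. The adjusted p depends on that share, so the simulated rates do not give the sensitivity of the test in these data. Tables and figures were made with pandas 2.3.3 and matplotlib 3.10.9 in Python 3.11.15. Some items are not reported here.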

Additional observations from a re-analysis of the deposited data

How the results depend on the processing

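Of 139 refitted values of the 10 members, 123 kept their direction and their side of the threshold, 10 lost a call (3 of MCL1 and 7 of BAX), 2 gained one (BCL2L11) and 4 changed sign, all of BCL2L1, whose fold change lies near 0. BCL2L1 was at -0.047 with total counts alone and at -0.009 with genes of at least 1 read kept, and leaving out 1 library gave -0.065 to 0.09. With 1 library left out, 4 to 7 members and 5112 to 7565 of all genes passed; at an adjusted p under 0.01, 4 members and 4117 genes did. Deviations of same-numbered libraries had correlations of 0.059, -0.042 and 0.099, and those of other pairs -0.119 to 0.062. These values do not settle whether the numbers mark pairs, since pairing with a weak shared effect could give them too. With the number as a replicate block, 5 members and 6295 genes passed, BAX being lost (adjusted p = 0.0658). BCL2 was not tested with the filter of 1 CPM in 3 libraries. Of 26 other genes named by rule and tested, 24 kept their call at 0.05 in each alternative fit that tested them (HRK was not tested with the 1 CPM filter); HTRA2 and ENDOG did not. At 0.01 CYCS (adjusted p = 0.0105) and BIK (0.0116) did not pass either. The 26 genes were named for a small p or for likeness to BMF in these same counts. Their calls were therefore likely to hold, and the 24 says little about the rest of each list. Depth limits BCL2, which had at most 19 counts per library.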

Other observations

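BID and BCL2L13 lie end to end on chromosome 22, with 3282 bases between the end of BCL2L13 on the plus strand and the end of BID on the minus strand, and they moved in opposite directions. BCL2L13 had 224, 227 and 217 CPM in siCtrl and 100, 107 and 101 CPM in siRCC2, while BID had 63.4, 67 and 58.5 against 108, 94 and 89.6 CPM. The pair was noticed after its values were seen.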
